A study of Mus musculus with 17 samples.

Results

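LYVE1+CX3CR1+ macrophages of the mouse synovium, the membrane that lines the joint cavity, were compared with MHCII+CD11c- macrophages of the same tissue at 8 h after immune complexes (IC). The members of the comparison are the columns of a joint count table that carry the labels Lyve1_IC (3 samples) and IAIE_IC (3 samples), which makes 6 of the 17 samples of the series. In these labels IAIE stands for I-A and I-E, the MHC class II molecules of the mouse. Every mouse was labelled Fcgr2b-KO, controls included, so all groups lack by their label the inhibitory Fc receptor for IgG. The IC were ovalbumin with rabbit antibodies to it, given through the tail vein. LYVE1+CX3CR1+ cells had been sorted as MHCII- Ly6C- macrophages with LYVE1 and CX3CR1 on the surface, and MHCII+CD11c- cells as macrophages with MHC class II but without CD11c. The control samples of the same sorts (3 and 3 samples, treatment labelled Control) are used below to ask whether a difference was already there without IC. The 5 remaining samples, MHCII+CD11c+ macrophages, entered the filter on low counts, the scaling of the libraries and the joint estimate of the spread. Whether a sample came from 1 mouse or from a pool is not given in the sources used here, so p-values measure the spread between these samples, which may be partly technical.

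Synovial macrophages include resident cells of the lining and the tissue below it, which clear debris and serum proteins and often carry LYVE1, a hyaluronan receptor, and cells of the sublining that display peptides on MHC class II to T cells and are partly renewed from blood monocytes. IC bind Fc receptors for IgG on macrophages and can start the release of chemokines and cytokines, while FcγRIIB, the receptor these mice lack by label, dampens that signal. Interferon-stimulated genes encode antiviral proteins that many cells make in response to type I interferon, and chemokines draw leukocytes from the blood.

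The samples were of shallow and unequal depth. Totals were 2301913 to 3348248 counts in the LYVE1+CX3CR1+ samples and 3878535 to 4902776 in the MHCII+CD11c- samples, so 3 counts, taken here as the floor, corresponded to 0.878 to 1.24 and 0.618 to 0.826 CPM. These CPM are counts per 1000000 of a library size adjusted by TMM, a scaling that assumes most genes are alike. Drawn down to the smallest total, the LYVE1+CX3CR1+ samples had 12951 ± 1231 genes with a count (mean ± SD, n = 3) and the MHCII+CD11c- samples 15867 ± 625 (n = 3), against 16896 ± 476 and 16700 ± 811 in their controls. LYVE1+CX3CR1+ macrophages after IC thus showed fewer genes at equal depth than the other 3 groups, and 1762 of the tested genes were at the floor in all 3 of their samples against 586 for MHCII+CD11c-. Replicates correlated at 0.855 to 0.890 and at 0.907 to 0.933 in log2 CPM. The floor covers counting error only. How far these differences in detection set the values below was not tested.

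Genes used for the sort served as a check of the labels and not as findings. H2-Eb1 (chromosome 17, 34305867 to 34316674, plus strand, GRCm38), a beta chain of MHC class II, had 0 counts in all 3 LYVE1+CX3CR1+ samples and stood at 1330, 1410 and 1460 CPM in the MHCII+CD11c- samples, which is at least 1370-fold lower (adjusted p = 6.47e-16). The groups stood far apart. Lyve1 had 3470, 3270 and 4120 CPM in the LYVE1+CX3CR1+ samples and 2340, 1450 and 2460 CPM in the MHCII+CD11c- samples. The groups did not overlap, but Lyve1 did not pass the test (log2 difference 0.80 ± 0.80, SE; adjusted p = 0.635), so Lyve1 mRNA was plentiful on both sides of a sort that gates on the protein in only one of them. Cx3cr1 had 244, 254 and 304 CPM against 154, 41 and 16.5 (log2 difference 1.92 ± 0.71, adjusted p = 0.157), with MHCII+CD11c- replicate 1 nearest to the other group. Counts were also assigned to Fcgr2b, the gene named in the genotype, with 164, 145 and 69.3 CPM against 159, 141 and 114 (log2 difference -0.13 ± 0.26, adjusted p = 0.839). The table does not say which exons these reads cover, so Fcgr2b checks nothing about the deletion.

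Of 15272 genes tested with edgeR, 846 differed between the subsets after IC at an adjusted p under 0.05, which is 5.54% of the genes. Far more were lower than higher in LYVE1+CX3CR1+ macrophages: 732 (4.79%) were lower and 114 (0.746%) were higher. Of the 732 lower genes, 214 were at the floor in all 3 LYVE1+CX3CR1+ samples, 164 of them with no count at all, and 518 had counts above it. Among the 114 higher genes, 1 was at the floor in the MHCII+CD11c- samples. The median log2 difference over all tested genes was -0.14 (-0.12 with genes at the floor set to their bound). The direction was less uneven among abundant genes, where 66 were higher and 315 lower of 3796 genes with a mean of at least 50 CPM. In 108 of the higher and 721 of the lower genes the 3 samples of one group lay outside the range of the other, while over all tested genes such a gap occurred upward in 6.16% and downward in 15.7%.

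These counts depended on single samples of the MHCII+CD11c- group. Without its replicate 1 there were 1118 called genes (338 higher and 780 lower), without replicate 2 there were 488 (30 and 458), and without replicate 3 there were 437 (24 and 413). Replicate 1 held higher levels of several genes of the other subset: Vsig4, a complement receptor of resident macrophages, stood at 1580, 2020 and 1800 CPM in LYVE1+CX3CR1+ macrophages and at 541, 144 and 28.3 CPM in MHCII+CD11c- macrophages (log2 difference 2.92 ± 1.44, adjusted p = 0.305). F11r, a junction protein of the lining, had 169, 218 and 215 CPM against 90.9, 21.2 and 1.93 (adjusted p = 0.264). With library totals in place of TMM 199 genes were higher and 615 lower, which raised the share of higher genes among calls from 13.5% to 24.4% and moved the median of all genes from -0.14 to -0.04.

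**Figure D1:**
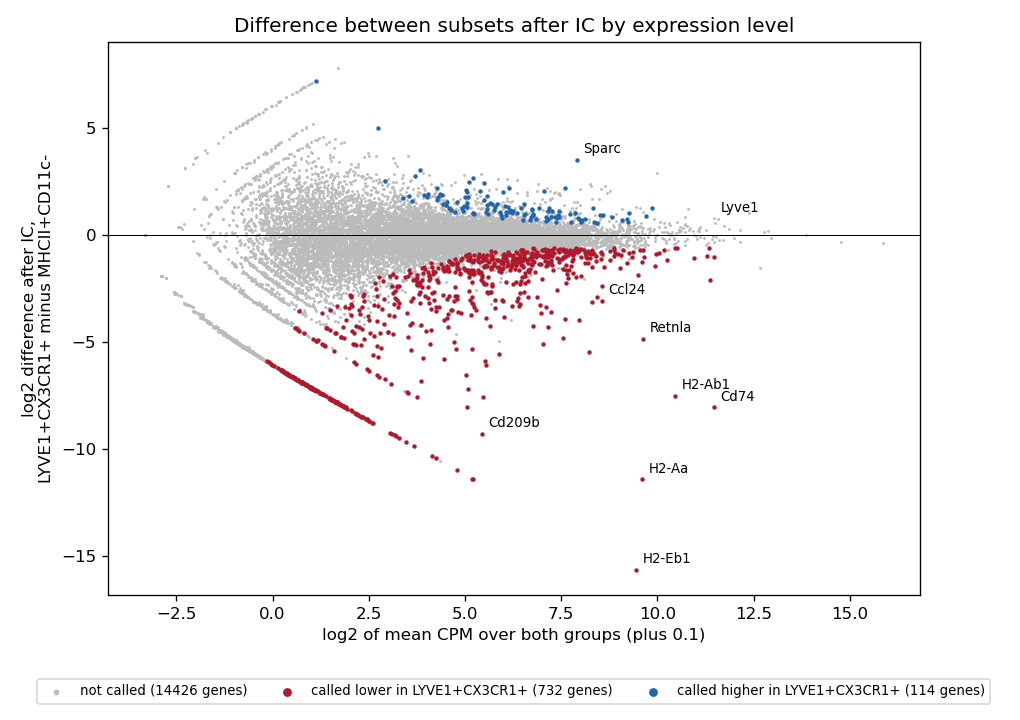
Log2 difference between LYVE1+CX3CR1+ and MHCII+CD11c- macrophages after IC (vertical axis, positive values higher in LYVE1+CX3CR1+) against mean level in log2 CPM (horizontal axis) for the 15272 tested genes, with called genes in colour. The 732 lower genes reach differences far below those of the 114 higher genes, and many of the lowest lie at the left, where counts are few.

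Markers of other cells were counted to describe what the sorted samples may also contain, since in bulk RNA fewer cells of a type and less RNA per cell cannot be told apart. The counts of called markers stand beside 4.79% of all genes lower. Neutrophil markers summed to 15.5 to 32.8 CPM in the LYVE1+CX3CR1+ samples and 102 to 173 CPM in the MHCII+CD11c- samples, with 2 of 11 tested genes called lower (Csf3r and Mmp9). S100a8 and S100a9 were at 0 in all 3 LYVE1+CX3CR1+ samples, while Ly6g was at 0 in every sample of both groups. Lymphocyte markers summed to 8.19 to 53.9 against 71.8 to 143 CPM (1 of 6 lower, Cd79b), dendritic cell genes to 57.9 to 89.6 against 97.1 to 162 (4 of 11 lower), osteoclast markers to 31.1 to 49.2 against 68.1 to 149 (1 of 6 lower) and muscle, cartilage, fat and nerve markers to 44 to 52.4 against 55.9 to 65.3 (0 of 7). The sums of these 5 lists were higher in every MHCII+CD11c- sample than in any LYVE1+CX3CR1+ sample. Monocyte genes summed to 1030 to 1260 against 975 to 1080 CPM (3 of 11 lower, Ccr2, Plac8 and Itgal), fibroblast markers to 117 to 200 against 113 to 203 (1 of 10 lower, Cd55), endothelial markers to 8.78 to 49.4 against 9.31 to 49.4 (0 of 8), mast cell markers to 0 to 9.36 against 1.11 to 32.3 (0 of 5) and red cell markers to 0 to 2.2 against 0.443 to 23.7 (0 of 4), and these 5 overlapped. The part of such cells in the differences below was not tested. Of 12 genes that macrophages in general express, none was higher and 2 were lower, Mpeg1 and Aif1, with a median log2 difference of -0.08, and Csf1r, the receptor for macrophage colony-stimulating factor, had 2730, 2260 and 2940 CPM against 2620, 2110 and 1960 (log2 difference 0.24 ± 0.19, adjusted p = 0.486).

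Genes of MHC class II presentation, which the sort itself used, gave wide gaps. Of 14 tested genes 8 were lower in LYVE1+CX3CR1+ macrophages and none was higher, against 4.79% of all genes lower. All 8 calls held without each of the 6 samples in turn. The median log2 difference was -4.03, or -3.51 with genes at the floor set to their bound. Cd74, the invariant chain that guards the peptide groove, had 23.1, 10.1 and 31.5 CPM in the LYVE1+CX3CR1+ samples and 5720, 5670 and 5520 CPM in the MHCII+CD11c- samples (log2 difference -8.04 ± 0.28, adjusted p = 5.57e-10). H2-Ab1, the other beta chain, had 24.6, 9.76 and 10.8 against 2650, 2850 and 2820 CPM (log2 difference -7.51 ± 0.29, adjusted p = 8.41e-10). Ciita, the master regulator of class II transcription, had 0, 1.89 and 0 CPM against 65, 84.1 and 42.4 (log2 difference -6.53 ± 0.79, adjusted p = 2.7e-06). In all of these the groups were far apart. Ciita was at or near the floor in the LYVE1+CX3CR1+ samples, while Cd74 and H2-Ab1 were above it. H2-DMb1, one chain of the peptide exchange factor H2-DM, had 7.9, 6.29 and 0.415 CPM against 102, 101 and 85.6 (log2 difference -4.22 ± 0.41, adjusted p = 1.37e-05). Genes of the endosomal steps before loading did not pass the test. The cathepsin gene Ctss, whose product cuts the invariant chain, had 2640, 2280 and 2320 CPM against 3000, 1590 and 1260 (log2 difference 0.31 ± 0.38, adjusted p = 0.706), and the thiol reductase gene Ifi30 had 166, 192 and 184 against 281, 182 and 215 (log2 difference -0.32 ± 0.19, adjusted p = 0.325). In both the groups overlapped. In control mice 9 of the 14 genes were lower and none was higher, beside 1.22% of all genes lower there.

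The sequence before the start of 3 of these genes is given because class II genes are known to share upstream elements, the last of which, the Y box, holds the letters ATTGG or its reverse CCAAT. Windows from 250 bases before to 50 after the start came from RefSeq (GRCm38.p6), 5 of the 8 called genes had at least 1, and all 5 held CCAAT on one strand or the other, in 5 of their 6 windows, against 12289 of 32851 windows of all genes (37.4%). The 250 bases before the start, 5′ to 3′ on the gene's strand with the matches in capitals, were taken from chr17:34287824-34288073 (minus strand) for H2-Aa, chr17:34305617-34305866 (plus strand) for H2-Eb1 and chr17:34152941-34153190 (plus strand) for H2-DMb1. A match of 5 letters is a description and not a site.
H2-Aa: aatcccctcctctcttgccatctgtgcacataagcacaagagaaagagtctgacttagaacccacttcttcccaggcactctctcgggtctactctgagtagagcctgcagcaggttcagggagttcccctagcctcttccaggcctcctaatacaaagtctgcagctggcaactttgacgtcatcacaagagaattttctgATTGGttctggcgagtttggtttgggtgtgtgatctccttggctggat
H2-Eb1: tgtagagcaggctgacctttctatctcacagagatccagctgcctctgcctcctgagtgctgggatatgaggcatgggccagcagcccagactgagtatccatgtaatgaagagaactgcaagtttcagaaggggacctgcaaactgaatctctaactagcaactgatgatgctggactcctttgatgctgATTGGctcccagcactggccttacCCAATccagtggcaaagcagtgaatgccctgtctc
H2-DMb1: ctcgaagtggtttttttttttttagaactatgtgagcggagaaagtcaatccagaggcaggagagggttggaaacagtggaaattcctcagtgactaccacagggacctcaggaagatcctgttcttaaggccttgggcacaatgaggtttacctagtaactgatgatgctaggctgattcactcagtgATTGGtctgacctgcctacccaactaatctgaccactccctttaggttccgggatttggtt
H2-Eb1 holds 2 matches, 1 on each strand, and the other 2 genes 1 each. H2-Aa, an alpha chain, had 1.46, 0 and 0 CPM in the LYVE1+CX3CR1+ samples and 1430, 1640 and 1590 CPM in the MHCII+CD11c- samples (adjusted p = 9.06e-08).

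Genes of interstitial MHCII+ macrophages, a list of surface lectins and secreted proteins that mark such cells in many tissues, separated the subsets next, but not throughout. Of 14 tested genes 9 were lower and none was higher in LYVE1+CX3CR1+ macrophages, against 4.79% of all genes lower. The median log2 difference was -4.11, or -3.57 at the bound, and 7 of the 9 calls held without each sample in turn, all but Clec10a and Ear2. The summed level overlapped, at 6490 to 10100 against 4780 to 10100 CPM. Aqp1 lay higher in every LYVE1+CX3CR1+ sample (898, 427 and 789 against 337, 121 and 43.8 CPM), and Fn1 leaned the same way with overlap. Neither passed the test (adjusted p = 0.34 and 0.548). Retnla, which encodes the secreted protein RELMα, had 70.2, 63.3 and 24.1 CPM against 1030, 1120 and 2410 (log2 difference -4.85 ± 0.53, adjusted p = 0.000849). Mgl2, a lectin for galactose-type sugars, had 17.8, 5.67 and 15.8 CPM against 226, 339 and 513 (log2 difference -4.78 ± 0.35, adjusted p = 1.23e-06). Ccr2, the receptor for the monocyte chemokine CCL2, had 21.6, 14.8 and 4.15 CPM against 192, 349 and 281 (log2 difference -4.30 ± 0.50, adjusted p = 0.000572). The groups did not overlap in any of these genes. Clec4b1, a C-type lectin, had 0 counts in all 3 LYVE1+CX3CR1+ samples and 11.1, 14.2 and 3.3 CPM in the others, at least 9.32-fold lower (adjusted p = 0.00013). In control mice 5 of the 14 were lower (median log2 difference -2.73), beside 1.22% of all genes lower there.

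Ligands by which such cells speak to T cells followed in part. Of 12 tested costimulatory and checkpoint ligands 3 were lower and none was higher (median -0.15), against 4.79% of all genes lower. Cd274, which encodes the inhibitory ligand PD-L1, had 9.95, 8.18 and 2.9 CPM against 34.4, 32.6 and 30.5 (log2 difference -2.19 ± 0.41, adjusted p = 0.0026), with no overlap. Cd80, a ligand of CD28, had 10.8, 9.13 and 2.9 CPM against 14.9, 27 and 33.3 (log2 difference -1.69 ± 0.44, adjusted p = 0.0223), and its call was lost without MHCII+CD11c- replicate 2 (0.0742) or 3 (0.115) or LYVE1+CX3CR1+ replicate 3 (0.0831). Nectin2 had 0 counts in all LYVE1+CX3CR1+ samples and 2.66, 2.47 and 5.23 CPM in the others (at least 3.38-fold lower, adjusted p = 0.0196), a call that held in 3 of the 6 fits with a sample left out.

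Type I interferon-stimulated genes were lower almost throughout the list. Of 20 tested genes 17 were lower in LYVE1+CX3CR1+ macrophages and none was higher, against 4.79% of all genes lower. In 18 the LYVE1+CX3CR1+ samples were all below the others, against 15.7% of all genes. The median log2 difference was -2.22, and the summed level of the list was 524 to 759 CPM in the LYVE1+CX3CR1+ samples and 1920 to 3020 CPM in the MHCII+CD11c- samples. Ifit1, which binds viral RNA, had 17.3, 10.7 and 8.3 CPM against 76.9, 111 and 106 (log2 difference -3 ± 0.44, adjusted p = 0.000298). Mx2, a gene of the dynamin-like Mx family annotated as a polymorphic pseudogene, had 19.3, 14.8 and 13.7 CPM against 54.3, 91.3 and 86.7 (log2 difference -2.27 ± 0.34, adjusted p = 0.000288). Zbp1 (chromosome 2, 173206612 to 173218923, minus strand), a sensor of Z-form nucleic acids, had 36.3, 14.8 and 18.7 CPM against 134, 159 and 229 (log2 difference -2.89 ± 0.29, adjusted p = 2.37e-06). Each of these genes was lower in every LYVE1+CX3CR1+ sample than in any sample of the other group. Isg15, a ubiquitin-like modifier, had 8.48, 12 and 0.83 CPM against 48.3, 80.3 and 71.8 (log2 difference -3.19 ± 0.52, adjusted p = 0.0012).

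Other members of the list were less uniform. Irf7, which amplifies interferon production, had 55.6, 39.3 and 52.3 CPM against 190, 262 and 407 (log2 difference -2.54 ± 0.35, adjusted p = 0.000545). Bst2, which tethers virus particles, had 26.6, 34.6 and 46.5 CPM against 78, 54.2 and 105 (log2 difference -1.14 ± 0.41, adjusted p = 0.114), and with Usp18 it was among the 3 of 20 that did not pass. Ifi44 had 0 counts in the LYVE1+CX3CR1+ samples and 3.1, 11.3 and 43.5 CPM in the others (at least 18.9-fold lower, adjusted p = 0.00414). Calls of 12 of the 17 genes held without each sample in turn, and those of Ifit3, Oas1a, Oas2, Rsad2 and Xaf1 did not, with between 12 and 17 genes called over these fits and 11 with voom. The summed levels of neutrophil, lymphocyte and dendritic cell markers, given above, were higher in the MHCII+CD11c- samples.

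In control mice 4 of the 20 genes were lower and none was higher, beside 1.22% of all genes lower there. The median log2 difference was -1.13. Ifit1, for example, had 15.5 ± 4.21 CPM in control LYVE1+CX3CR1+ macrophages and 34 ± 26.8 CPM in control MHCII+CD11c- macrophages (SD, n = 3 each; log2 difference -1.13 ± 0.43, adjusted p = 0.276). The change of that difference with IC was -1.88 ± 0.61 and did not pass the test (adjusted p = 0.443), nor did that of any other gene of the list (0 of 20 with edgeR and 0 with DESeq2, 7 at an unadjusted p under 0.05). Over all 15272 tested genes 4 were called with edgeR (0.0262%) and 38 with DESeq2, and 1152 had an unadjusted p under 0.05 with edgeR.

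The letters GAAA followed after any 2 bases by GAAA again, the core that interferon-stimulated response elements share, were sought on both strands of the RefSeq windows of the called genes, a search chosen after the values had been seen. Windows were found for 13 of the 17 genes, and those of 8 genes held the letters, against 1131 of 32851 windows of all genes (3.44%). The windows of Isg15 and Ifit1 are shown as examples with several matches, although those of Ifit3 and Oas1a also held 2 each. Matches are in capitals, and the bases are from chr4:156200819-156201068 (minus strand) and chr19:34640639-34640888 (plus strand).
Isg15: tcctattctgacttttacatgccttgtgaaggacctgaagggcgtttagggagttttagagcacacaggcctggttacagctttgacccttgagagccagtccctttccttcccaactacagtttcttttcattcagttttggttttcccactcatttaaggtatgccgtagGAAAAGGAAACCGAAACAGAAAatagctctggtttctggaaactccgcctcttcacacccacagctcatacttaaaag
Ifit1: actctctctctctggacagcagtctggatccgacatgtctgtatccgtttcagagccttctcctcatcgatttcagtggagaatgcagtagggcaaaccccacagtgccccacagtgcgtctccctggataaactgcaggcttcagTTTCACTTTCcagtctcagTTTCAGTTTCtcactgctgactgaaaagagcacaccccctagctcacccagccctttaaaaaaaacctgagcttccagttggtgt
Isg15 holds 3 overlapping matches in one run and Ifit1 2 matches on the reverse strand.

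Chemokines were lower in LYVE1+CX3CR1+ macrophages where they differed. Of 24 tested chemokines, a list the study may have picked on these samples, 10 were lower and none was higher (median log2 difference -2.22, or -2.15 at the bound), against 4.79% of all genes lower. In 16 the LYVE1+CX3CR1+ samples were all below the others, against 15.7% of all genes. The summed level was 4090 to 5440 CPM against 8510 to 17000 CPM. Ccl2 (chromosome 11, 82035571 to 82037453, plus strand), which draws monocytes through CCR2, had 103, 101 and 86.3 CPM against 302, 398 and 430 (log2 difference -1.96 ± 0.21, adjusted p = 6.07e-06). Ccl7, which acts on the same receptor, had 75.5, 83.1 and 49.8 CPM against 267, 348 and 351 (log2 difference -2.21 ± 0.30, adjusted p = 0.000224). Ccl24, which draws eosinophils, had 94.2, 88.4 and 61 CPM against 436, 683 and 898 (log2 difference -3.05 ± 0.32, adjusted p = 4.42e-05). The 2 groups stood well apart in all 3 genes. Ccl8 had 21.1, 4.72 and 6.64 CPM against 269, 169 and 183 (log2 difference -4.23 ± 0.51, adjusted p = 0.00042), and Ccl12 had 10.8, 14.8 and 16.2 CPM against 53.9, 106 and 97.7 (log2 difference -2.63 ± 0.45, adjusted p = 0.0013). Ccl6 had 1070, 1050 and 908 CPM against 2480, 3150 and 7250 (log2 difference -2.09 ± 0.29, adjusted p = 0.000663), with MHCII+CD11c- replicate 3 far above the others.

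Chemokines that draw neutrophils did not pass the test. Cxcl1 had 205, 170 and 197 CPM against 193, 235 and 197 (log2 difference -0.13 ± 0.55, adjusted p = 0.931), and Cxcl2 had 1240, 1120 and 775 CPM against 1090, 1470 and 1460 (log2 difference -0.36 ± 0.34, adjusted p = 0.605). The groups overlapped in both. At far fewer counts, Cxcl3 had 0.293, 0 and 0.415 CPM against 3.1, 3.91 and 7.15 (adjusted p = 0.157) and Ppbp had 1.17, 0 and 0 CPM against 2.22, 5.56 and 8.53 (adjusted p = 0.209), so all LYVE1+CX3CR1+ samples were below the others in these 2. Ccl9, a ligand of CCR1, was lower, with 1920, 1780 and 1410 CPM against 2240, 2680 and 4900 (log2 difference -0.94 ± 0.23, adjusted p = 0.0196). Ccl3, another ligand of CCR1, had 126, 113 and 95 CPM against 96.9, 167 and 86.1 after IC (log2 difference -0.07 ± 0.29, adjusted p = 0.928). In control mice Ccl3 had been higher in LYVE1+CX3CR1+ macrophages (log2 difference 1.60 ± 0.29, adjusted p = 0.00579), and the change of the difference, -1.67 ± 0.41, did not pass the test (adjusted p = 0.234). For Ccl2 the control values were 240 ± 60.1 and 377 ± 75.1 CPM (log2 difference -0.65 ± 0.21, adjusted p = 0.161), and the change with IC was -1.30 ± 0.30 (adjusted p = 0.198). Of the 10 calls 8 held without each sample in turn, all but those of Ccl9 and Cxcl10. In control mice 1 of the 24 was higher and 4 were lower (median -0.86), beside 0.34% and 1.22% of all genes there.

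**Figure D2:**
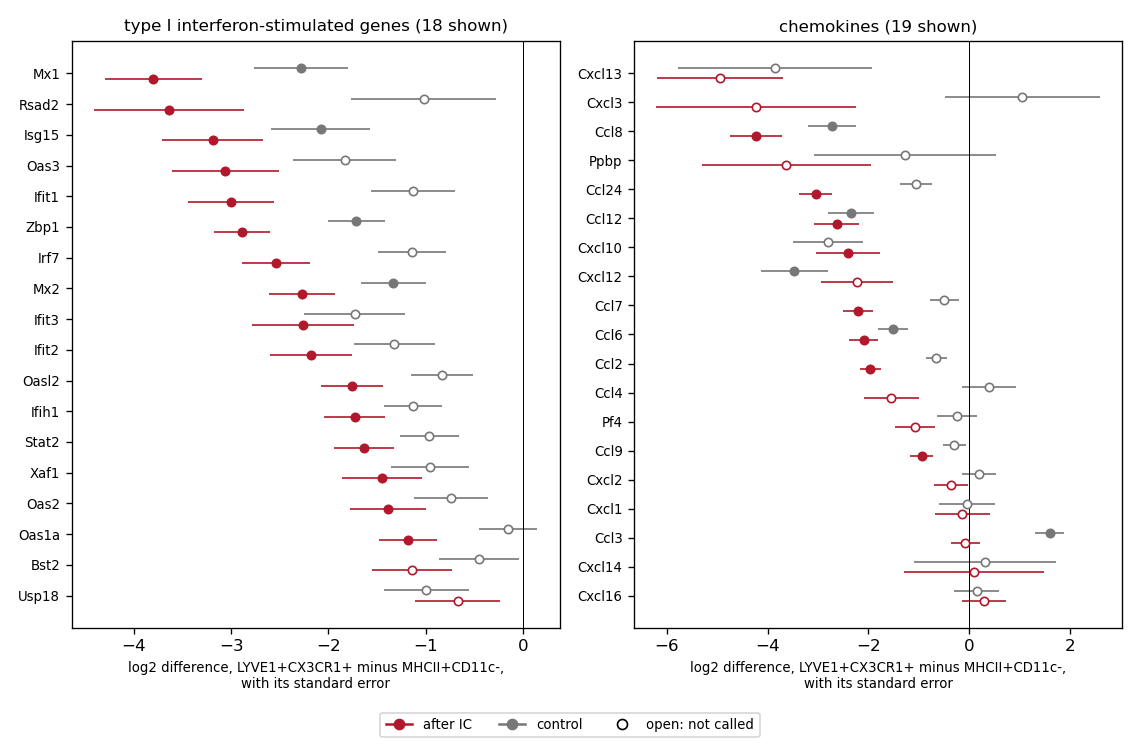
Log2 difference (LYVE1+CX3CR1+ minus MHCII+CD11c-) ± SE of 18 interferon-stimulated genes and 19 chemokines after IC and in control mice, with filled points for called genes and open points for the others. After IC the called genes of both lists lie below 0, while Ccl3, Cxcl1 and Cxcl2 lie near it, and the other tested members, most with standard errors too large to draw, are left out.

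Cytokines followed the same direction for a few members only. Of 20 tested cytokines and antagonists 3 were lower and none was higher (median -0.46), against 4.79% of all genes lower. All 3 calls held without each sample in turn. Il1rn, the natural antagonist of interleukin 1, had 24, 36.2 and 7.88 CPM against 113, 176 and 164 (log2 difference -2.71 ± 0.45, adjusted p = 0.00342). Il10, an anti-inflammatory cytokine, had 27.5, 15.4 and 4.56 CPM against 45.9, 79.3 and 90.3 (log2 difference -2.16 ± 0.44, adjusted p = 0.0058). Il6, a driver of fever and the acute phase, had 0, 3.46 and 0 CPM against 7.54, 24.5 and 17.9 (log2 difference -3.75 ± 0.90, adjusted p = 0.0116). The 3 called genes thus include 2 that restrain inflammation. Tnf, a cytokine that activates endothelium and is a drug target in arthritis, had 404, 266 and 283 CPM against 278, 262 and 214 (log2 difference 0.34 ± 0.24, adjusted p = 0.437), and Il1b had 35.7, 45.6 and 11.6 CPM against 65.2, 151 and 89.7 (log2 difference -1.70 ± 0.72, adjusted p = 0.205). Of 17 pain mediators, again a list the study may have picked on these samples, 4 were lower and none was higher. The 4 were Il6, Ccl2, Ptgs1 and Ptgs2, beside 4.79% of all genes lower, and the median of the list was -0.07. Ptgs1, a cyclooxygenase at the head of prostaglandin synthesis, had 0, 1.57 and 0 CPM against 19.1, 18.1 and 33.3 (log2 difference -5.35 ± 0.86, adjusted p = 0.000121). Ptgs2, its inducible counterpart, had 17, 22 and 9.96 CPM against 52.3, 40.8 and 72.4 (log2 difference -1.74 ± 0.46, adjusted p = 0.036), a call that held in 1 of the 6 fits that left out a sample.

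Of 10 receptors for neuropeptides, adrenaline and adenosine 1 was higher and 1 was lower, both at few counts, beside 0.746% and 4.79% of all genes. Ramp2, a partner in the adrenomedullin receptor, had 7.9, 9.76 and 21.2 CPM against 1.11, 0 and 0 (adjusted p = 0.0297), and Adora2a, an adenosine receptor, had 0, 0.944 and 0 CPM against 3.33, 5.77 and 3.85 (adjusted p = 0.0239). Each of these calls held in 3 of the 6 fits that left out a sample. Ramp1, the partner in the CGRP receptor, did not pass (log2 difference -1.21 ± 0.74, adjusted p = 0.334), nor did Calcrl, its core (-0.09 ± 0.32, adjusted p = 0.916).

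Genes that were higher in LYVE1+CX3CR1+ macrophages were fewer and changed less. Across the 114 the median log2 difference was 1.2. Atp2a3 (chromosome 11, 72961169 to 72993044, plus strand), a pump that returns calcium to the endoplasmic reticulum, had 195, 190 and 253 CPM against 72.7, 43.1 and 34.4 (log2 difference 2.08 ± 0.27, adjusted p = 6.86e-05). Arsb (chromosome 13, 93771630 to 93943016, plus strand), a lysosomal sulfatase that degrades glycosaminoglycans, had 307, 279 and 369 CPM against 106, 73.3 and 23.4 (log2 difference 2.23 ± 0.34, adjusted p = 0.00129). Hpgds, which makes prostaglandin D2, had 116, 146 and 149 CPM against 74.5, 49.9 and 23.9 (log2 difference 1.46 ± 0.29, adjusted p = 0.00342). In each of these the LYVE1+CX3CR1+ samples were all above the others, and MHCII+CD11c- replicate 1 was the highest of its group. Pink1, a kinase that marks damaged mitochondria for removal, had 85.4, 85.6 and 126 CPM against 45.7, 40 and 30.3 (log2 difference 1.35 ± 0.22, adjusted p = 0.000737). Slc6a6, the taurine transporter, had 1130, 1000 and 1100 CPM against 762, 562 and 409 (log2 difference 0.90 ± 0.18, adjusted p = 0.00389), the most even values of these genes in the LYVE1+CX3CR1+ group.

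Among the other genes with the smallest p-values, a scaffold of adhesion stood beside genes of less certain role. Arhgap22 had 46.5, 86.9 and 69.7 CPM against 24.6, 14.6 and 9.08 (log2 difference 2.06 ± 0.39, adjusted p = 0.00319). Nedd9, a scaffold at focal adhesions, had 170, 262 and 197 CPM against 115, 90.4 and 80.1 (log2 difference 1.14 ± 0.22, adjusted p = 0.00342). Mob2, which binds kinases of the NDR family, had 111, 77.7 and 117 CPM against 43.2, 22.3 and 9.08 (log2 difference 2.03 ± 0.37, adjusted p = 0.00208). The groups were apart in all 3. Marveld1 (1.15 ± 0.24, adjusted p = 0.0053) and Klhl6 (1.06 ± 0.23, adjusted p = 0.0058) were also higher (log2 difference ± SE). Gpr137b, a lysosomal membrane protein, had 170, 111 and 169 CPM against 93.6, 58.5 and 42.1 (log2 difference 1.21 ± 0.25, adjusted p = 0.00556), but its reads may be shared with its near copy Gpr137b-ps, also called, so both are uncertain. The calls of these genes held in every fit that left out a sample.

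**Figure D3:**
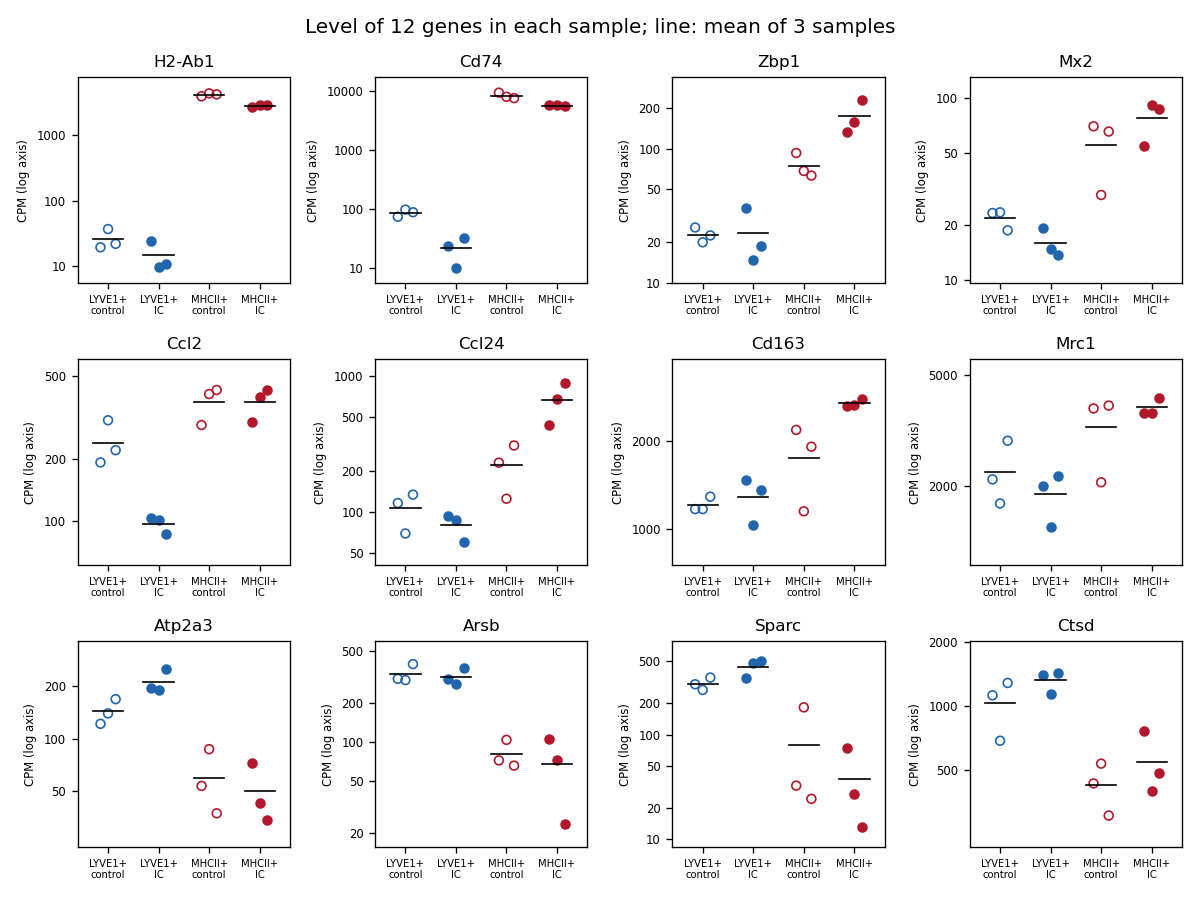
Level in CPM (vertical, log axis) of 12 genes in each sample of LYVE1+CX3CR1+ and MHCII+CD11c- macrophages, with open symbols for control mice and filled symbols for mice after IC. After IC the LYVE1+CX3CR1+ samples lie below the others for H2-Ab1, Cd74, Zbp1, Mx2, Ccl2, Ccl24, Cd163 and Mrc1 and above them for Atp2a3, Arsb, Sparc and Ctsd.

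TGF-beta and BMP signalling was the list with the most higher genes, beside 0.746% of all genes higher after IC and 0.34% in control mice. Of 19 tested genes 3 were higher and none was lower (median log2 difference 0.75 after IC and 0.7 in control mice, where 2 were higher), but no call held without each sample in turn: none of the list was called without MHCII+CD11c- replicate 3, 1 without MHCII+CD11c- replicate 2 or LYVE1+CX3CR1+ replicate 3, and 6 without MHCII+CD11c- replicate 1. Smad7, an inhibitor that TGF-beta itself induces, had 64.7, 84.3 and 73.8 CPM against 34.8, 26.8 and 16.5 (log2 difference 1.51 ± 0.33, adjusted p = 0.00706, and 0.0556 without MHCII+CD11c- replicate 3). Bmpr2, a receptor for bone morphogenetic proteins, had 193, 211 and 268 CPM against 158, 88.6 and 127 (log2 difference 0.85 ± 0.21, adjusted p = 0.015), and Smurf2, a ubiquitin ligase that acts with Smad7, had 105, 166 and 163 CPM against 111, 79.9 and 65.5 (log2 difference 0.75 ± 0.22, adjusted p = 0.0438), with overlap for Smurf2 only. Tgfbr1, a receptor of the pathway, had 190, 206 and 214 CPM against 118, 108 and 38.3 (log2 difference 1.21 ± 0.48) and did not pass (adjusted p = 0.174), and Tgfb1, the ligand, had 287, 287 and 263 CPM against 295, 315 and 259 (log2 difference -0.05 ± 0.14, adjusted p = 0.884). The 3 called genes thus comprised a receptor and 2 inhibitors. Of 15 tested growth factors, 1 was higher and 1 was lower, both of other pathways, beside 0.746% and 4.79% of all genes. The lower share was near that of all genes. Vegfb was higher, with 24, 35.6 and 41.9 CPM against 18, 13.6 and 9.63 (log2 difference 1.29 ± 0.36, adjusted p = 0.0388, and up to 0.171 without a sample). Hbegf, a ligand of the EGF receptor, was lower, with 3.8, 8.81 and 2.07 CPM against 55.9, 79.5 and 63 (log2 difference -3.72 ± 0.46, adjusted p = 3.61e-05).

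Lysosomal genes moved both ways. Of 24 tested proteases and hydrolases 2 were higher and 2 were lower (median 0.3), beside 0.746% and 4.79% of all genes. Ctsd, an aspartic protease of the lysosome, had 1400, 1140 and 1430 CPM against 759, 397 and 484 (log2 difference 1.28 ± 0.27, adjusted p = 0.00922, and 0.0547 without MHCII+CD11c- replicate 3). Ctsh, a cysteine protease, had 115, 116 and 97.5 CPM against 219, 280 and 351 (log2 difference -1.37 ± 0.21, adjusted p = 0.000353), the 1 call of the list that held without each sample. Ctsc, which activates granule proteases, had 562, 396 and 510 CPM against 888, 829 and 768 (log2 difference -0.76 ± 0.20, adjusted p = 0.0258), a call that held in 1 of those 6 fits. Man2b1 was higher just under the threshold (log2 difference 0.62 ± 0.19), with 710, 707 and 789 CPM against 605, 384 and 441, and its call held in 1 of 6 fits.

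Genes of resident and lining macrophages were split between the subsets. Of 20 tested genes 1 was higher and 6 were lower (median log2 difference -0.94 after IC and -0.02 in control mice, where none was higher and 1 was lower). In 4 genes, Sparc, Vsig4, Trem2 and Cbr2, every LYVE1+CX3CR1+ sample was above the others, and in 9, among them 4 Cd209 genes, Cd163 and Mrc1, every one was below. Over all tested genes such gaps occurred upward in 6.16% and downward in 15.7%, with 0.746% called higher and 4.79% called lower. In control mice 0.34% of all genes were called higher and 1.22% lower. Vsig4 and Cx3cr1, both given above, did not pass the test. Cd163, the receptor for haptoglobin with haemoglobin, had 1470, 1030 and 1360 CPM against 2620, 2650 and 2780 (log2 difference -1.06 ± 0.22, adjusted p = 0.00447), and Mrc1, the mannose receptor, had 2010, 1440 and 2180 CPM against 3660, 3660 and 4140 (log2 difference -1.03 ± 0.21, adjusted p = 0.00445). Both were lower in every LYVE1+CX3CR1+ sample. The lectin Cd209f had 4.97, 20.8 and 14.1 CPM against 277, 442 and 1020 (log2 difference -5.46 ± 0.75, adjusted p = 0.0035), and Cd209b had 0, 0.315 and 0 CPM against 59.2, 70.7 and 130 (adjusted p = 0.000148), although read sharing within this family of near copies is not known. Sparc, a secreted matrix protein and the 1 higher gene, had 344, 481 and 499 CPM against 74.1, 27 and 13.2 (log2 difference 3.53 ± 0.83, adjusted p = 0.0452), and its call held in 1 of the 6 fits that left out a sample (adjusted p up to 0.157). Markers often used for resident cells did not pass: Timd4, a receptor for phosphatidylserine, had 173, 162 and 185 CPM against 168, 87.1 and 173 (log2 difference 0.28 ± 0.30, adjusted p = 0.644), and Trem2, a lipid receptor, had 238, 318 and 284 CPM against 155, 105 and 49.3 (log2 difference 1.44 ± 0.80, adjusted p = 0.338). The groups overlapped for Timd4 and did not for Trem2. Folr2, a folate receptor, overlapped (log2 difference -0.16 ± 0.51, adjusted p = 0.91). None of 7 tight junction and adhesion genes of the lining was called. Their summed level was 293 to 340 against 66.9 to 169 CPM, and Tjp1 had 29, 33 and 30.3 CPM against 14, 7 and 0.55 (log2 difference 2.08 ± 0.84, adjusted p = 0.175).

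The uptake and complement genes that were called were lower except for Mfge8, beside 4.79% of all genes lower and 0.746% higher. Of 21 scavenger and apoptotic cell receptors and bridging proteins 4 were lower (Cd163, Mrc1, Axl and Cd209a) and 1 was higher, Mfge8, which bridges dying cells to phagocytes, with 47.1, 37.1 and 64.7 CPM against 18.4, 10.7 and 13.8 (log2 difference 1.79 ± 0.46, adjusted p = 0.0247, and 0.122 without MHCII+CD11c- replicate 2, 0.0925 without replicate 3 and 0.0774 without LYVE1+CX3CR1+ replicate 3). Of 17 complement genes 4 were lower and none was higher (median -0.11), with 2 called without LYVE1+CX3CR1+ replicate 3. Cfp, properdin, which stabilises the alternative convertase, had 61.1, 25.8 and 108 CPM against 334, 436 and 912 (log2 difference -3.12 ± 0.57, adjusted p = 0.0116). Cd55, which breaks that convertase down, had 1.46, 0 and 0 CPM against 15.3, 21.4 and 51.7 (log2 difference -5.72 ± 0.94, adjusted p = 0.00037). C3, the central component, had 6.73, 0 and 0 CPM against 148, 83 and 116 (log2 difference -5.54 ± 1.26, adjusted p = 0.0203), and was not called without LYVE1+CX3CR1+ replicate 2 (0.0587) or 3 (0.0702) or MHCII+CD11c- replicate 3 (0.0523). C1qa, of the classical pathway that IC activate, had 2270, 1970 and 2070 CPM against 2150, 1390 and 1870 and overlapped (log2 difference 0.22 ± 0.46, adjusted p = 0.841).

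Receptors that bind IC did not pass the test. None of 16 genes of Fc receptors for IgG and their signalling was called (median -0.18), beside 5.54% of all genes. Fcgr3, an activating receptor of lower affinity, had 434, 388 and 376 CPM against 421, 350 and 332 (log2 difference 0.12 ± 0.16, adjusted p = 0.724), and Fcer1g, the shared signalling chain, had 372, 412 and 469 CPM against 398, 442 and 495 (log2 difference -0.09 ± 0.18, adjusted p = 0.832). Both overlapped, with small errors. Fcgr1, the high-affinity receptor, had 111, 57.9 and 111 CPM against 226, 324 and 300 (log2 difference -1.60 ± 0.52, adjusted p = 0.104), and Fcgr4 had 10.5, 3.15 and 0 CPM against 14.4, 29.3 and 28.6 (log2 difference -2.36 ± 0.98, adjusted p = 0.181), so all LYVE1+CX3CR1+ samples were below the others in these 2 genes without passing the test.

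Sensors and adhesion molecules that were called were also lower, beside 4.79% of all genes lower. Of 15 toll-like receptors and adaptors 3 were lower and none was higher (median -0.32). Tlr9, the sensor of CpG DNA, had 9.65, 6.92 and 5.39 CPM against 62.1, 71.5 and 63 (log2 difference -3.14 ± 0.37, adjusted p = 1.5e-05), and held without each sample, while Tlr1 and Tlr5 did not. Tlr4, the sensor of lipopolysaccharide, had 91.9, 67 and 88.4 CPM against 106, 92.7 and 110 (log2 difference -0.32 ± 0.30, adjusted p = 0.597). Of 21 integrins and adhesion molecules 4 were lower, among them Itgb7, a partner chain of gut-homing integrins, with 2.93, 1.57 and 3.32 CPM against 23.1, 20.2 and 21.5 (log2 difference -3.06 ± 0.40, adjusted p = 2.68e-05). Vcam1, a ligand of integrins, had 4.68, 5.04 and 0 CPM against 25.3, 41.4 and 64.4 (log2 difference -3.69 ± 0.69, adjusted p = 0.0031). The fourth, Itgax, encodes the CD11c of the sort.

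**Figure D4:**
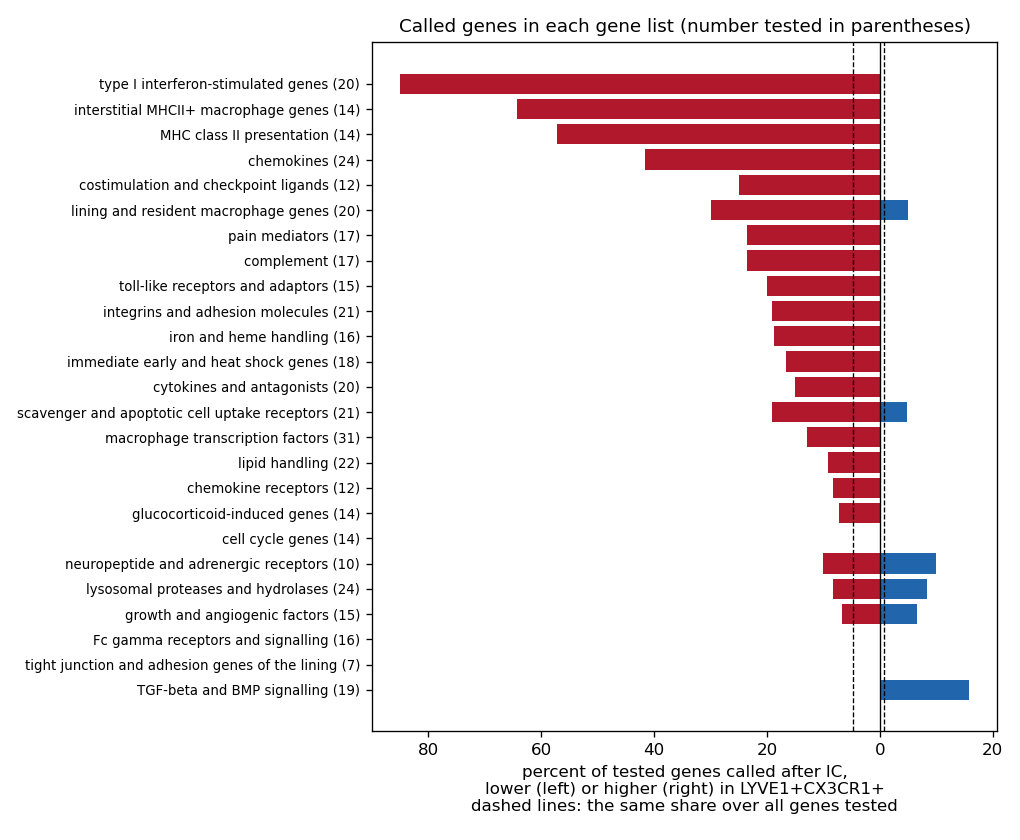
Percent of the tested genes of each list that were called lower or higher in LYVE1+CX3CR1+ macrophages after IC, with dashed lines at the shares over all genes (4.79% lower, 0.746% higher). Interferon-stimulated genes (17 of 20 lower), interstitial MHCII+ macrophage genes (9 of 14) and MHC class II genes (8 of 14) have the longest bars, and Fc receptors and tight junction genes have none.

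The lists for lipid, iron, stress and transcription factors held few calls, and the share lower over all genes was 4.79%. Of 22 genes of lipid handling 2 were lower, Lpl and Pparg, a share near that of all genes. Lpl, lipoprotein lipase, had 29.3, 35.9 and 25.7 CPM against 243, 602 and 558 (log2 difference -3.94 ± 0.34, adjusted p = 1.94e-05), and the change of its difference with IC was -2.76 ± 0.48 (adjusted p = 0.0869). Of 16 genes for iron and heme 3 were lower, with Hmox1, which degrades heme, at 541, 491 and 571 CPM against 920, 1040 and 1220 (log2 difference -0.99 ± 0.17, adjusted p = 0.00119). Of 18 immediate early and heat shock genes 3 were lower (Dnajb1, Hsp90aa1 and Egr1; median -0.28), of which Dnajb1, a cochaperone of Hsp70, had 185, 177 and 158 CPM against 291, 338 and 403 (log2 difference -0.99 ± 0.17, adjusted p = 0.000838) and was the 1 that held without each sample. Of 31 macrophage transcription factors 4 were lower (Pparg, Egr2, Egr3 and Nfil3) and none was higher (median -0.12). The calls of Pparg and Egr3 held in 4 of the 6 fits that left out a sample, and that of Tfrc, of the iron list, in 1. Maf, a factor of resident macrophages, had 617, 553 and 627 CPM against 598, 671 and 736 (log2 difference -0.16 ± 0.20, adjusted p = 0.712). None of 14 cell cycle genes was called, and of 14 glucocorticoid-induced genes and of 12 chemokine receptors 1 each was lower (Cd163 and Ccr2), again near that share.

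Of the lower genes with the smallest p-values outside these lists, Fgl2, a prothrombinase of macrophages, had 27.5, 20.1 and 22 CPM against 256, 230 and 183 (log2 difference -3.26 ± 0.23, adjusted p = 6.65e-09). Arc, best known as an immediate early gene of neurons, had 14, 14.2 and 13.3 CPM against 112, 130 and 165 (log2 difference -3.29 ± 0.24, adjusted p = 9.2e-09). Clec4a1, a C-type lectin, had 22.5, 17 and 17.8 CPM against 127, 149 and 164 (log2 difference -2.93 ± 0.29, adjusted p = 2.1e-06). The values of these genes were narrow within each group and did not overlap. Mefv, which encodes the inflammasome sensor pyrin, had 0.293, 0 and 0 CPM against 12.9, 36.9 and 16.8 (adjusted p = 1.23e-06).

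The control samples of the same sorts share no sample with the comparison after IC and give the difference without IC. There 238 genes were called (1.56% of those tested), 52 higher (0.34%) and 186 lower (1.22%). Of the 114 genes that were higher after IC 104 had the same sign in control mice (91.2%), and of the 732 lower genes 667 (91.1%), where 50.3% of all tested genes lay below 0 in control mice. Called in both were 22 of the higher genes (19.3% of those after IC and 42.3% of those in control mice) and 124 of the lower genes (16.9% and 66.7%), and none was called in opposite directions. The sizes differed: the 114 higher genes had a median log2 difference of 1.2 after IC and 0.73 in control mice, and the 518 lower genes not at the floor had -1.51 and -0.69. Since these genes were chosen for their difference after IC, a smaller value elsewhere is a property of the choice as well. Arsb was called in both (control log2 difference 2.05 ± 0.34, adjusted p = 0.006), as was Hpgds (1.80 ± 0.28, adjusted p = 0.00117). Pink1 was called after IC only, with a control difference of 0.07 ± 0.22 (adjusted p = 0.992), and the change between the 2, 1.28 ± 0.31, did not pass (adjusted p = 0.234).

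**Figure D5:**
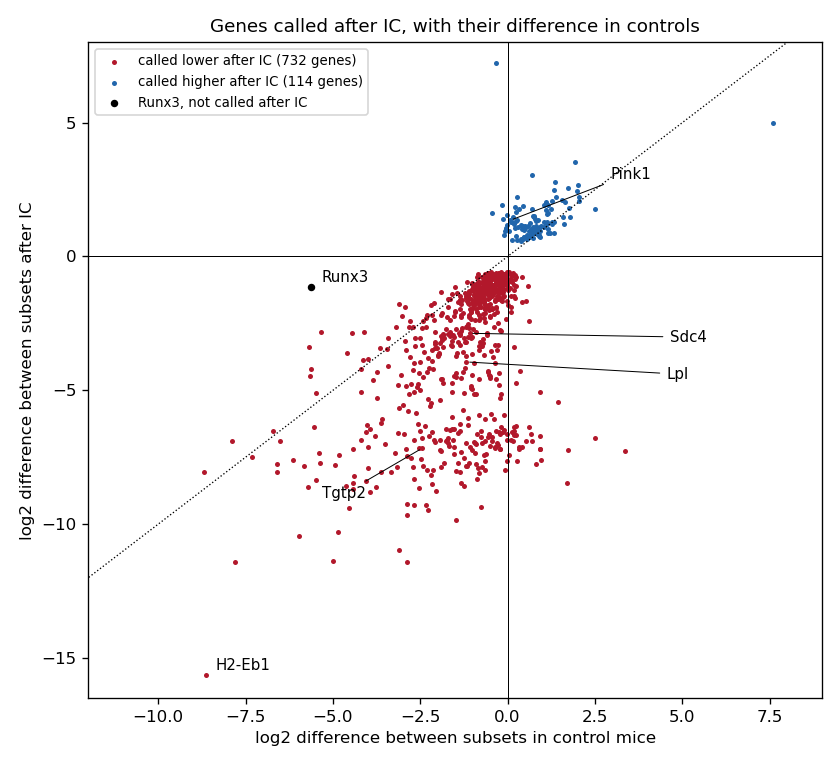
Log2 difference between the subsets after IC (vertical axis) against that in control mice (horizontal axis) for the genes called after IC, with the 4 genes whose difference depended on IC marked by name and a dotted line of equal differences. Most points share their sign on both axes, and Runx3, which was not called after IC, stands apart.

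The difference between the subsets depended on IC by the test of the interaction in 4 genes, 0.0262% of those tested (1152 genes at an unadjusted p under 0.05, and 38 called by DESeq2). Sdc4 (chromosome 2, 164424247 to 164443887, minus strand), a heparan sulfate proteoglycan of the cell surface, had 80.5 ± 23.4 and 171 ± 23.2 CPM in control LYVE1+CX3CR1+ and MHCII+CD11c- macrophages (log2 difference -1.09 ± 0.21, adjusted p = 0.00819). After IC the values were 98, 80.6 and 70.9 CPM against 533, 628 and 668 (log2 difference -2.87 ± 0.21, adjusted p = 1.72e-08), so the gap widened by 1.78 ± 0.30 log2 units, written as an interaction of -1.78 (adjusted p = 0.0291). Tgtp2 (chromosome 11, 49057194 to 49064206, minus strand), an interferon-inducible GTPase, had 6.86 ± 1.43 and 37.4 ± 8.53 CPM in controls, and after IC 1.17, 0 and 0 against 49.4, 77.9 and 72.1 (interaction -4.72 ± 0.87, adjusted p = 0.0116), with reads that may be shared with its copy Tgtp1. H2-Eb1 had 5.3 ± 1.98 and 2160 ± 191 CPM in controls and no count in LYVE1+CX3CR1+ macrophages after IC (interaction adjusted p = 0.000367). It belongs to the sort genes and is no finding here either. LYVE1+CX3CR1+ totals were 3669763 to 7248939 counts in controls and 2301913 to 3348248 after IC, and its interaction was not called at equal depth or with voom. The part of depth and of stray cells in it was not tested. Runx3, a transcription factor of lymphocytes and some macrophages, went the other way: 0.192 ± 0.211 and 12.5 ± 5.17 CPM in controls (log2 difference -5.62 ± 0.85, adjusted p = 9.18e-06) and 4.1, 14.5 and 3.32 against 16.6, 15.9 and 16.8 CPM after IC (log2 difference -1.15 ± 0.44, adjusted p = 0.127; interaction 4.47 ± 0.96, adjusted p = 0.0416). Over the 12 fits that left out a sample of these 4 groups, the interaction was called in 12 for H2-Eb1, 10 for Tgtp2, 5 for Sdc4 and 3 for Runx3.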

How the data were processed

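Per the labels and the study's methods, sorted synovial macrophages gave 5 ng of total RNA per library. A stranded kit for low input was used, with paired reads. The authors trimmed the start of read 1, removed adaptors and poor bases with Trim Galore, assessed quality with FastQC, used HISAT2 for alignment to mm10 and obtained a count for each gene by featureCounts. Tool versions, annotation, strand setting and treatment of reads with several alignments are not given in the sources used here, so reads of near copies and of overlapping or antisense genes may be split or lost. The authors tested with DESeq2 and removed a batch, not named, with sva. The deposited values are counts, whole numbers per gene symbol, not normalized, 2301913 to 7248939 per sample. Sample tables and the joint table were identical for 17 of 17 samples, and 1 column matched no sample and was not used.

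Groups came from the sample titles. Of 22859 genes, 15272 passed filterByExpr (minimum count 10). One model of 6 group means over all 17 samples (11 residual degrees of freedom, biological coefficient of variation 45.1%) was fitted with TMM scaling in edgeR 4.0.16 (R 4.3.3; glmQLFit with the robust option, quasi-likelihood F test), and contrasts were Lyve1_IC against IAIE_IC, the same in controls, and their difference. Every adjusted p is from this fit with Benjamini-Hochberg adjustment over all genes of 1 contrast, and genes under 0.05 are called. Differences are log2 fold changes ± SE, levels are CPM (counts per 1000000 of the TMM-scaled library size), mean ± SD. Folds against a group with no count were set against the floor of 3 counts per sample and are bounds. Alternatives were DESeq2 1.42.0, voom with sample weights in limma 3.58.1, 3 surrogate variables from sva 3.50.0, RLE or no scaling, other filters, only the groups compared, equal depth, a gene length offset, the replicate number as a block, and leaving out each sample. The scripts were tested on simulated data. Replicates differed beyond counting noise (lowest chi-square per degree of freedom 6.77).

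The comparison and the gene lists were chosen with earlier results of these data known. Genes named by rule were sort markers, the 12 called genes on each side with the smallest p and no overlap between groups (predicted genes left out), up to 3 called genes per list and side, and up to 5 called interaction genes. Other members were named to account for a count, after their values were seen. Counts per list without LYVE1+CX3CR1+ replicate 3 and under each alternative, and the search for the interferon-stimulated response element core, were added after seeing the data. Gene positions came from GENCODE M21 (GRCm38), in which 97.5% of symbols were matched. Some items are not reported here.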

Additional observations from a re-analysis of the deposited data

Results flagged for a closer look

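The difference between LYVE1+CX3CR1+ and MHCII+CD11c- macrophages changed with IC, by the test of the interaction in edgeR, in 4 genes. The interaction was -1.78 log2 units for Sdc4 (adjusted p = 0.0291) and -4.72 for Tgtp2 (adjusted p = 0.0116), so the subsets lay farther apart after IC. For H2-Eb1, a gene of the sort, it was -7 (adjusted p = 0.000367). This fitted value depends on the treatment of zero counts and is no bound, since LYVE1+CX3CR1+ macrophages had no count after IC. For Runx3 it was 4.47 (adjusted p = 0.0416), the subsets lying closer together after IC. Over all 24 alternatives the call was made in 22 for H2-Eb1, 20 for Tgtp2, 12 for Sdc4 and 10 for Runx3, and with voom and at equal depth in none of them (adjusted p up to 0.64 for H2-Eb1 and 0.495 for the other 3). Groups had 3 samples or fewer, so no sample was tested for standing apart.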

How the results depend on the processing

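The direction of every named gene was kept in every alternative. Of 76 named genes that were called, 46 were called under all alternatives (at most 18 per gene) and 30 were lost under at least 1. After IC 846 genes were called, 1448 with DESeq2, 326 with voom, 376 with only the groups compared, 2371 with surrogate variables, 355 at an adjusted p under 0.01 and 437 to 1118 without 1 sample. Of the genes called in the report, 830 were shared with DESeq2, 278 with voom and 831 with surrogate variables. Higher genes were 412 with DESeq2, 195 with RLE scaling, 199 with library totals, 176 with a minimum count of 30, 499 with surrogate variables and 24 to 338 without 1 sample. Lower genes were 230 with voom, 270 with only the groups compared, 1872 with surrogate variables and 413 to 780 without 1 sample. Leaving out LYVE1+CX3CR1+ replicate 3 gave 632 calls.

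In control mice 238 genes were called, 510 with DESeq2, 1048 with voom, 494 with only the groups compared, 85 at an adjusted p under 0.01 and 96 to 411 without 1 sample. The interaction was called in 4 genes, 38 with DESeq2, 0 with voom or at equal depth, 2 with a minimum count of 30, 7 with only the groups compared, 15 with surrogate variables, 1 at an adjusted p under 0.01 and 1 to 7 without 1 sample. The cause of these shifts was not tested, beyond the fewer samples in some fits.

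Interferon-stimulated genes called lower were 17, 11 with voom and 12 to 17 without 1 sample. TGF-beta and BMP genes called higher were 3, 6 with DESeq2, 8 with surrogate variables, 1 with the gene length offset and 0 to 6 without 1 sample. Chemokines (8 to 10 without 1 sample), interstitial genes (7 to 9) and lining genes (5 to 6) stayed within 1.5 times. With the replicate number as a block, 920 genes were called after IC, 376 in control mice, 10 for the interaction and 5 TGF-beta and BMP genes. Whether samples with the same number share mice is not given, and the values do not settle it. Deviations of same-numbered samples correlated weakly but above 0, at 0.0152 to 0.0591 after IC and 0.00738 to 0.127 in control mice. Those of other pairs lay at -0.0413 to 0.0162 and -0.117 to 0.0672, and not every sample correlated best with its own number. A pairing that the main fit leaves out is therefore possible. Depth limits the low genes, 3 counts being up to 1.24 CPM.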

Other observations

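Several gene families that were not among the lists were noticed in the table of called genes, so they are given as values with no test, beside 4.79% of all genes lower after IC and 1.22% in control mice. Of 11 tested genes of the Ifi200 family, sensors of DNA in cytosol and nucleus, 9 were lower in LYVE1+CX3CR1+ macrophages after IC (median log2 difference -3.19, and -1.42 in control mice, where 0 were called). Of the guanylate-binding proteins 4 of 9 were lower after IC and 5 in control mice (median -2.9 and -1.66), of the Schlafen genes 4 of 8 and 1 (-1.75 and -0.91), of the Phf11 genes 3 of 5 and 0 (-2.81 and -0.9) and of the Clec4 lectins 5 of 9 and 2 (-2.93 and -0.97). None of these families had a member called higher after IC. Members of such families are near copies, and how reads were shared among them is not known.

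Of 18 tested chaperones and folding factors of the endoplasmic reticulum 10 were lower after IC and none was higher (beside 4.79% of all genes lower; Calr, Dnajb9, Erp29, Hsp90b1, Hspa5, Hyou1, Pdia4, Pdia6, Sdf2l1 and Serp1), with a median log2 difference of -0.64, and of these 18 none was called in control mice, where 1.22% of all genes were lower and the median of the chaperones was -0.22.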
